A study of Homo sapiens with 6 samples.

Results

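The 8 genes described here encode the 7SK ribonucleoprotein and the kinase that it holds inactive, P-TEFb. They are 7SK itself (ENSG00000202198.1), HEXIM1, HEXIM2, LARP7, MEPCE, CDK9, CCNT1 and CCNT2, found by Ensembl identifier and symbol among the 57820 genes of the count files, and all 8 were present. The set was chosen with its fold changes between RUVBL1 siRNA and control siRNA libraries already known. Those fold changes are therefore given as a description, without a p-value, and they support no claim about the set.

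Total RNA was sequenced from C4-2B-ENZR, a human line of prostate cancer cells named for its resistance to the androgen receptor antagonist enzalutamide. A group of cells had been transfected with siRNA against RUVBL1 (3 libraries) and the other with a negative control siRNA (3 libraries). Both groups were the same line in the same serum-supplemented medium, and no other treatment or genetic change is named for either. All results refer to this line, and the labels do not state whether replicates were separate cultures. The p-values therefore measure only how far these libraries vary, and that variation may be technical.

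7SK is a short, abundant nuclear RNA transcribed by RNA polymerase III. MEPCE caps its 5′ end and LARP7 binds its 3′ end, and both keep it stable. HEXIM1 or HEXIM2, once bound to 7SK, inhibits P-TEFb, a kinase made of CDK9 and either cyclin T1 (CCNT1) or cyclin T2 (CCNT2). P-TEFb that leaves the particle phosphorylates RNA polymerase II and the pausing factors DSIF and NELF, and so lets polymerases paused near promoters enter elongation. Cells are known to shift P-TEFb between the 7SK particle and active complexes under stress and when transcription is inhibited.

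Stretches of 7SK are shown because the protein members meet the RNA there, and because the length and copies of the gene bear on how its reads can be counted. GENCODE 29 places the gene on GRCh38 at chr6:52995620-52995950, plus strand, as a transcript of 331 bases with 58.0% G and C, here written with T for U. The 5′ stretch, bases 1 to 100, holds most of the hairpin that HEXIM proteins bind, and capitals mark its 3 GATC motifs, which start at bases 13, 42 and 64. The 3′ stretch, bases 272 to 331, ends in the pyrimidine run that LARP7 holds, a run of 9 bases in capitals.
7SK 5′ stretch: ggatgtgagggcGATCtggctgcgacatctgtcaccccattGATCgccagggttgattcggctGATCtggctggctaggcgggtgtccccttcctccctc
7SK 3′ stretch: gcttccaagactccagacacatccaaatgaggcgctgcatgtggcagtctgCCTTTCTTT

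RefSeq promoter windows (GRCh38.p14, 250 bases before to 50 after a start) were available for the other 7 genes. Those of HEXIM1 and CCNT1 are shown because these protein-coding members lay farthest apart, HEXIM1 higher and CCNT1 lower after RUVBL1 siRNA. The windows are chr17:45148225-45148524 on the plus strand for HEXIM1 and chr12:48716658-48716957 on the minus strand for CCNT1. Capitals mark TATAAA and CCAAT on either strand, the reverse of CCAAT reading ATTGG.
HEXIM1 promoter: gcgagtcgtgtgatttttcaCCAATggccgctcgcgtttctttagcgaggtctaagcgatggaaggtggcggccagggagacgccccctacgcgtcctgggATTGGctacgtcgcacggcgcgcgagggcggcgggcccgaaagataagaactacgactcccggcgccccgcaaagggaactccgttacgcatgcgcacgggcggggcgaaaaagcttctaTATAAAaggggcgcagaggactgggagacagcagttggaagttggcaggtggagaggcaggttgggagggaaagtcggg
CCNT1 promoter: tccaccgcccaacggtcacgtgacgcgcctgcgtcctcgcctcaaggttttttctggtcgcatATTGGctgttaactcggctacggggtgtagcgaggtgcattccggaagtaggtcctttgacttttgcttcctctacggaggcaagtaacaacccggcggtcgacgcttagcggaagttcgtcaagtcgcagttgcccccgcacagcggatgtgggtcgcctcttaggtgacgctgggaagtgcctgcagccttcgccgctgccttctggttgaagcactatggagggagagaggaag
The HEXIM1 window held 1 TATAAA, 2 CCAAT (1 on each strand) and 2 GGGCGG. The CCNT1 window held no TATAAA, 1 CCAAT on the reverse strand, 1 GGGCGG and 1 place with the palindrome CACGTG. On either strand, TATAAA occurred in 11.5% of the 35116 windows, CCAAT in 34.6%, GGGCGG in 45.0% and CACGTG in 7.3%. TATAAA was in none of the other windows of the 7 genes, CCAAT also occurred at HEXIM2, LARP7, MEPCE and CCNT2, and CACGTG also at MEPCE. TGATGNAA, a motif bound by ATF4-containing dimers, was in no window of the 7 genes and in 3.6% of all windows. These are matches of letters, not evidence of binding.

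The libraries held between 18985542 and 36054489 estimated counts. RUVBL1, the target of the siRNA, had 2725, 2618 and 2710 normalized counts (counts scaled to a common effective library size) after RUVBL1 siRNA, against 4681, 4654 and 4758 after control siRNA, a log2 fold change of -0.81 (SE 0.0253, edgeR adjusted p = 3.74e-10). All 9 luminal prostate markers averaged at least 100 normalized counts, and their sum was lower after RUVBL1 siRNA, at 73340 to 75920, than after control siRNA, at 82300 to 84380. The part of this difference in the results for the 8 genes was not tested. The leukocyte markers summed to between 11.95 and 14.9 after RUVBL1 siRNA and between 9.861 and 14.62 after control siRNA, with CD3E at 0. The endothelial markers found, VWF and CDH5, summed to 40.74 to 44.55 after RUVBL1 siRNA and 32.89 to 39.44 after control siRNA, nearly all of it VWF. The fibroblast markers summed to 296.6 to 338.8 after RUVBL1 siRNA and 300.2 to 331.0 after control siRNA, mostly COL1A1, with COL1A2 and DCN at 0. Replicate 1 stood apart in both groups: 542 genes were at 0 in both replicate 1 libraries and at 20 or more rounded estimated counts in the other 4. None of the 8 genes was among them.

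All 8 genes passed the filter on low counts. After RUVBL1 siRNA, 4 of them were higher (7SK, HEXIM1, HEXIM2 and CDK9) and 1 was lower (CCNT1) at an edgeR adjusted p under 0.05, while LARP7, MEPCE and CCNT2 did not pass. Over all 16006 genes tested, 42.2% passed, 19.1% as higher and 23.1% as lower. The groups did not overlap for the same 5 genes, against 52.6% of all genes tested. Without RUVBL1 siRNA replicate 2 or 3, or without control replicate 1 or 2, only 3 of the 8 passed, since HEXIM2 and CDK9 were lost. Nothing is read from these counts, since the set was chosen on the same contrast.

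7SK stood apart from the transcripts of its proteins in the size of its difference. Its normalized counts were 495, 519 and 544 after RUVBL1 siRNA, against 179, 214 and 192 after control siRNA. The lowest RUVBL1 siRNA library was thus above the highest control library. Means were 519.5 ± 24.5 and 194.9 ± 17.9 (SD, n = 3 each), a level of 267% of control and a log2 fold change of 1.41 (SE 0.0834). Libraries with the same replicate number differed by 2.77-fold, 2.42-fold and 2.84-fold. Among the 16006 genes, 7SK had the 79th largest log2 rise. These values rested on few reads for so abundant an RNA: the estimated counts were 370.95, 521.85 and 500.89 after RUVBL1 siRNA and 162.96, 281.85 and 209.7 after control siRNA. The sources used here do not give the library kit or say whether RNA with a poly(A) tail was selected, and 7SK is known to lack such a tail.

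**Figure D1:**
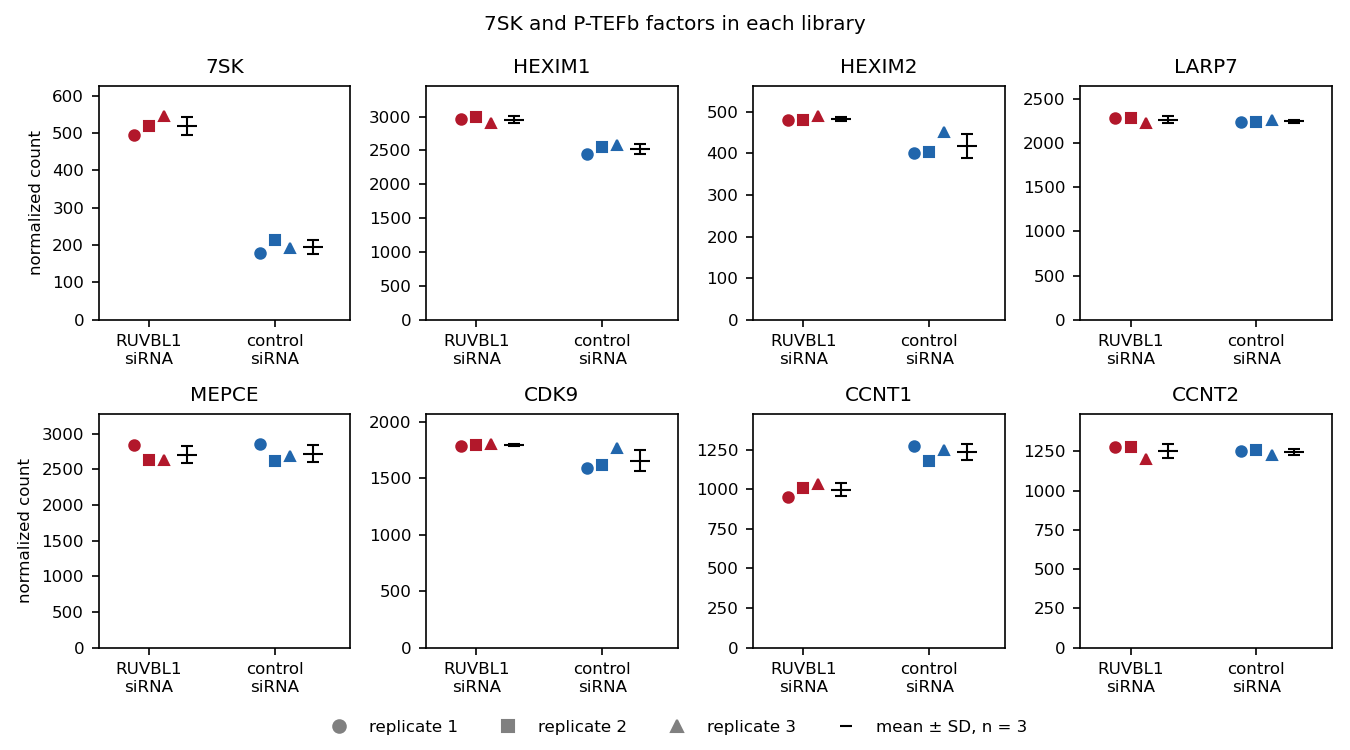
Normalized counts (vertical axes, from 0) of each of the 8 genes in the 3 RUVBL1 siRNA and the 3 control siRNA libraries, with marker shape for the replicate number and bars for mean ± SD (n = 3). 7SK averages 519.5 in RUVBL1 siRNA libraries and 194.9 in control libraries, while the protein-coding genes differ by much less.

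Part of the 7SK sequence is shared with other genes, which makes its count uncertain. In GENCODE 29 the counted identifier is named RF00100. A second entry, RN7SK, of 328 bases, overlaps it on the same strand, with its whole sequence inside that of RF00100. This second entry was left out of the window counts that follow. Of the 282 windows of 50 bases in the 331-base transcript, 216 (76.6%) also occurred in a GENCODE 29 transcript of another gene. The genes sharing a window were 14, among them 10 RN7SKP pseudogenes, and RN7SKP71 shared the most, 96 windows. With windows of 75 bases, 163 of 257 (63.4%) were shared, with 6 RN7SKP pseudogenes among the genes that held them. The sources used here do not give the read length. The 289 RN7SKP pseudogenes, of which 33 were above 0 in any library and none passed the filter, summed to 14.69, 35.77 and 28.25 normalized counts after RUVBL1 siRNA, against 14.24, 20.5 and 32.89 after control siRNA. The groups overlapped for this sum, and each sum was far below 7SK itself in the same library. The most abundant copies were RN7SKP176, RN7SKP80 and RN7SKP239. RN7SKP80 had 4.006, 4.968 and 5.432 normalized counts after RUVBL1 siRNA and 5.478, 4.555 and 5.482 after control siRNA. With all copies added to 7SK, an alternative chosen after seeing the data, the log2 fold change was 1.33.

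Other short RNAs without poly(A) tails also differed between the groups, and their part in the 7SK value was not tested. Of 1803 small nuclear RNA genes, only 65 were above 0 in any library. Together the small nuclear RNA genes summed to 174.9, 221.6 and 247.7 normalized counts after RUVBL1 siRNA, against 63.55, 97.94 and 108.7 after control siRNA. Means were 214.7 ± 36.9 and 90.07 ± 23.6 (SD, n = 3 each), 2.38 times as high after RUVBL1 siRNA, next to 2.66 times for 7SK. All 6 small nuclear RNA genes that were tested rose, but none had more than 9.14 normalized counts in a control library. They passed the low-count filter only through the RUVBL1 siRNA libraries, so their common direction follows largely from the filter and nothing is read from it. Of these genes, 4 copies of U1 had identical values in every library and are not separate observations. The sum over all small nuclear RNA genes counts each such copy, so its ratio is not that of many separate RNAs. This grouping by gene type was chosen after the values were seen. Of the U1 genes in the list of RNA polymerase II small nuclear RNAs, RNU1-1 had 17.4, 35.8 and 16.3 normalized counts after RUVBL1 siRNA, against 5.48, 6.83 and 9.14 after control siRNA (log2 fold change 1.68, edgeR adjusted p = 0.00915). RNU1-2 and RNU1-4 had the same control values but 17.36, 0 and 32.59 after RUVBL1 siRNA. Their groups overlapped and neither was tested, so the RNU1-1 call may depend on how reads were assigned among U1 copies. The list of RNA polymerase II small nuclear RNAs had 3 of 5 tested members higher and none lower, with the same limit from the filter. RNU1-1 and RNU1-3, both among those higher, had identical values in every library. The list had 0 members higher with the DESeq2 test or with a minimum of 50 counts in 3 libraries.

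Small nucleolar RNAs differed by replicate number, with replicate 1 near 0, whereas 7SK was counted in all 6 libraries. Their summed normalized counts were 16.02, 569.4 and 617.1 after RUVBL1 siRNA, against 3.287, 266.5 and 272.3 after control siRNA. Within each replicate number the sum was thus also higher after RUVBL1 siRNA. The ratio of means was 2.22, though the groups overlapped. Most of the sum was SNORD3A, the U3 RNA of ribosomal RNA processing, listed at 0 in both replicate 1 libraries. SNORD3A had 416 and 444 normalized counts in RUVBL1 siRNA replicates 2 and 3, against 164 and 171 in control replicates 2 and 3. It did not pass in the unpaired fit (edgeR adjusted p = 0.697). Of the RNA polymerase III short RNAs other than 7SK, 14 of 20 listed genes were matched by symbol, and the rest were not looked up by identifier. Of the 14 matched, 8 were at 0 in every library and only BCYRN1 was tested. BCYRN1 was at 0 in both replicate 1 libraries, with 2348 and 2468 normalized counts in RUVBL1 siRNA replicates 2 and 3 and 2823 and 2724 in control replicates 2 and 3. It did not pass in the unpaired fit (adjusted p = 0.961), and passed as lower with the replicate block and in replicates 2 and 3 alone. Few RNA polymerase III transcripts matched by symbol could therefore be set beside 7SK, and those not matched were not examined by gene.

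**Figure D2:**
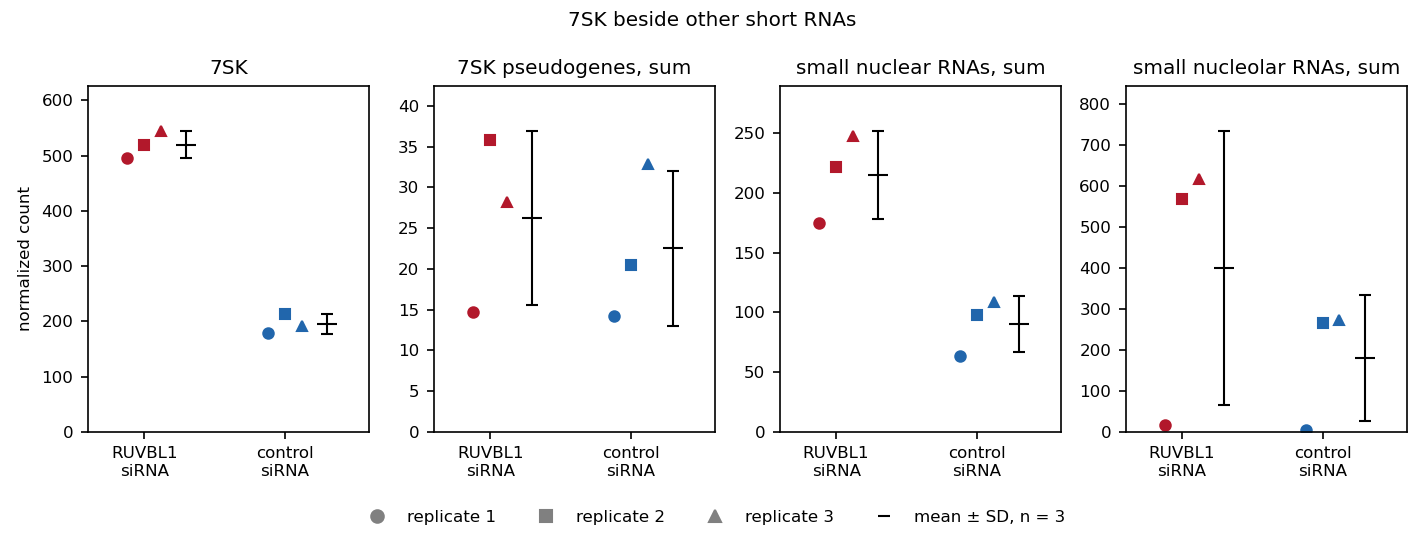
Normalized counts (vertical axes, from 0) of 7SK and summed normalized counts of its pseudogenes, of small nuclear RNA genes and of small nucleolar RNA genes, in RUVBL1 siRNA and control siRNA libraries, with marker shape for the replicate number and bars for mean ± SD (n = 3). 7SK and the small nuclear RNA sum separate the groups, and the pseudogene sum overlaps. The small nucleolar RNA sum is near 0 in replicate 1 of both groups, and higher after RUVBL1 siRNA within each replicate number.

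Of the transcripts for proteins bound directly to 7SK, those of the inhibitors were higher and those of the stabilizing proteins showed little difference. Protein levels were not measured. HEXIM1, whose basic region binds the 5′ hairpin and which then inhibits CDK9, had 2963, 2999 and 2910 normalized counts after RUVBL1 siRNA, against 2443, 2555 and 2584 after control siRNA. Every RUVBL1 siRNA library was above every control library. Means were 2957 ± 44.9 and 2527 ± 74.2 (SD, n = 3 each), 117% of control and a log2 fold change of 0.23 (SE 0.0304). Libraries with the same replicate number differed by 1.21-fold, 1.17-fold and 1.13-fold, next to 2.42-fold or more for 7SK.

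HEXIM2, the paralog that can take the place of HEXIM1, differed by a similar ratio at a lower count. It had 481, 481 and 489 normalized counts after RUVBL1 siRNA, against 401, 402 and 452 after control siRNA. The groups did not overlap, with control replicate 3 nearest to the RUVBL1 siRNA libraries. Means were 483.5 ± 4.67 and 418.6 ± 29.2 (SD, n = 3 each), 116% of control and a log2 fold change of 0.21 (SE 0.0646). HEXIM2 kept its side of the threshold in 9 of 15 alternative settings, and lost it without RUVBL1 siRNA replicate 2 or 3 and without control replicate 1 or 2, among others. Its log2 fold change was between 0.17 and 0.31 over all settings. HEXIM1 and HEXIM2 are neighbours on chromosome 17, and an antisense gene overlaps both, HEXIM2-AS1, which had at most 11.92 normalized counts in any library.

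LARP7, the La-related protein that protects the 3′ end of 7SK, had 2285, 2281 and 2224 normalized counts after RUVBL1 siRNA and 2238, 2233 and 2262 after control siRNA. The groups overlapped. Means were 2263 ± 34.1 and 2245 ± 15.5 (SD, n = 3 each), with a log2 fold change of 0.01 (SE 0.0285). MEPCE, the methyltransferase that caps the 5′ end, had 2846, 2632 and 2638 normalized counts after RUVBL1 siRNA and 2853, 2622 and 2689 after control siRNA. In both groups replicate 1 was the highest library. Means were 2705 ± 122 and 2721 ± 119 (SD, n = 3 each), with a log2 fold change of -0.01 (SE 0.0399). LARP7 was thus at 101% and MEPCE at 99.4% of control, against 267% for the RNA that they stabilize. On the opposite strand, ZGRF1 overlaps LARP7, with 231.0 to 244.5 normalized counts after RUVBL1 siRNA and 262.2 to 286.0 after control siRNA. Also on the opposite strand, ZCWPW1 overlaps MEPCE, with 157.6 to 169.9 normalized counts after RUVBL1 siRNA and 235.4 to 271.7 after control siRNA. The sources used here do not give the strand setting of the counting, so reads of these overlapping genes may not have been told apart, but both partners were well below the members in count.

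Among the P-TEFb transcripts, those of the kinase and its cyclins differed from each other. CDK9, the catalytic subunit, had 1780, 1791.5 and 1798 normalized counts after RUVBL1 siRNA, against 1588, 1612 and 1761.5 after control siRNA. The groups did not overlap, but control replicate 3 came close to the RUVBL1 siRNA libraries. Means were 1790 ± 9.17 and 1654 ± 94.2 (SD, n = 3 each), 108% of control and a log2 fold change of 0.11 (SE 0.0396). CDK9 passed in 8 of 15 alternative settings, failing with limma-voom, in replicates 2 and 3 alone, and without any one RUVBL1 siRNA library or control replicate 1 or 2.

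CCNT1, which encodes cyclin T1, was the only one of the 8 genes that was lower at the threshold. It had 952, 1008.5 and 1030 normalized counts after RUVBL1 siRNA, against 1273, 1178 and 1250 after control siRNA. The highest RUVBL1 siRNA library lay below the lowest control library. Means were 996.9 ± 40.2 and 1234 ± 49.8 (SD, n = 3 each), 80.8% of control and a log2 fold change of -0.31 (SE 0.0432). CCNT2, which encodes the alternative cyclin T2, had 1275, 1279 and 1204 normalized counts after RUVBL1 siRNA and 1250, 1260 and 1225 after control siRNA. Its groups overlapped, with means of 1253 ± 42.3 and 1245 ± 18.1 (SD, n = 3 each) and a log2 fold change of 0.01 (SE 0.036).

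How the libraries were scaled moved all 8 fold changes together. With library totals alone, without TMM factors (weights that assume most genes unchanged), the median log2 fold change of all genes shifted by 0.0992 and 68.4% of called genes were higher, against 45.3% with TMM factors. 7SK was then at 1.51, HEXIM1 at 0.33, HEXIM2 at 0.31, CDK9 at 0.21 and CCNT1 at -0.21, and each kept its direction. LARP7 and CCNT2, each at 0.11 with totals alone, then passed the threshold as higher, and MEPCE at 0.09 did not. Over all alternatives 7SK ranged from 1.33 to 1.51, HEXIM1 from 0.20 to 0.33 and CCNT1 from -0.34 to -0.21, and these 3 genes passed the threshold in each.

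**Figure D3:**
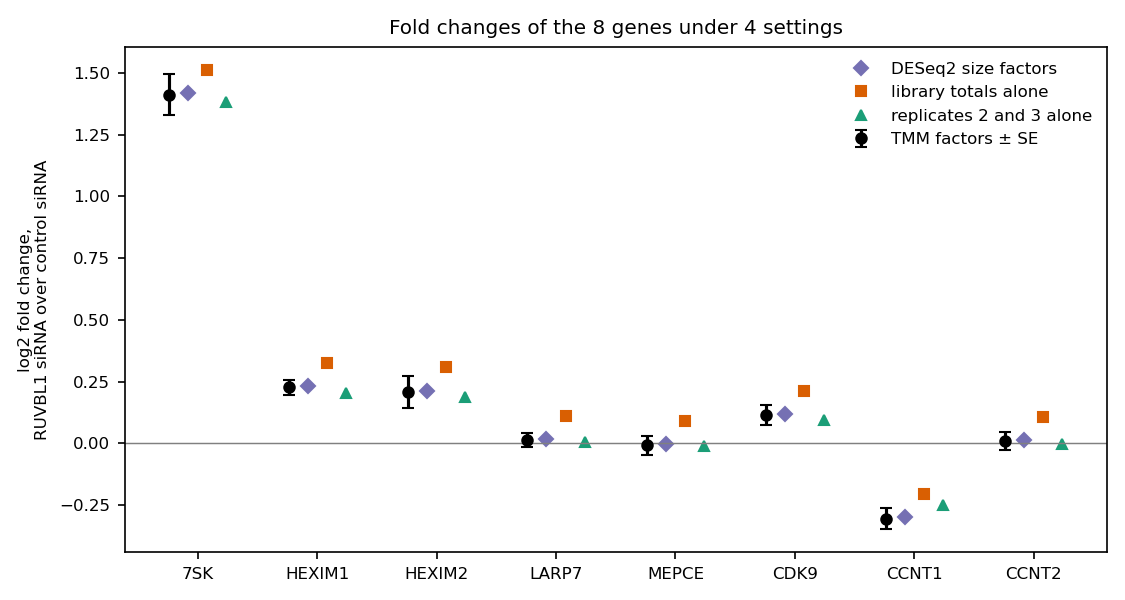
Log2 fold change of RUVBL1 siRNA over control siRNA (vertical axis) for each of the 8 genes under 4 settings: TMM factors with bars for ± 1 SE, DESeq2 size factors, library totals alone, and replicates 2 and 3 alone. Library totals alone raise every gene, for example HEXIM1 to 0.33, and 7SK stays above 1.3 and CCNT1 below 0 in each setting shown.

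Ratios of counts within a library do not depend on scaling between libraries. They compare members as counts, not per length, so only their difference between groups is of interest. The ratio of 7SK to HEXIM1 was 0.167, 0.173 and 0.187 after RUVBL1 siRNA, against 0.0731, 0.0838 and 0.0743 after control siRNA. It was thus 2.28 times as high after RUVBL1 siRNA, with no overlap. The ratio of HEXIM1 to HEXIM2 was 6.12 ± 0.15 after RUVBL1 siRNA and 6.05 ± 0.32 after control siRNA (SD, n = 3 each), and the groups overlapped. The ratio of CCNT1 to CCNT2 was 0.747, 0.789 and 0.856 after RUVBL1 siRNA, against 1.02, 0.934 and 1.02 after control siRNA. The 2 cyclin transcripts were therefore counted about equally in control libraries, and CCNT1 was the lower one in every RUVBL1 siRNA library. CCNT1 to CDK9 was 0.557 ± 0.02 after RUVBL1 siRNA and 0.747 ± 0.048 after control siRNA, and HEXIM1 to CCNT1 was 2.97 ± 0.14 and 2.05 ± 0.13 (SD, n = 3 each). The transcripts of the 2 stabilizing proteins kept a similar ratio, LARP7 to MEPCE being 0.838 ± 0.032 after RUVBL1 siRNA and 0.826 ± 0.036 after control siRNA. In these bulk libraries, less RNA per cell and fewer cells expressing a gene cannot be told apart.

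**Figure D4:**
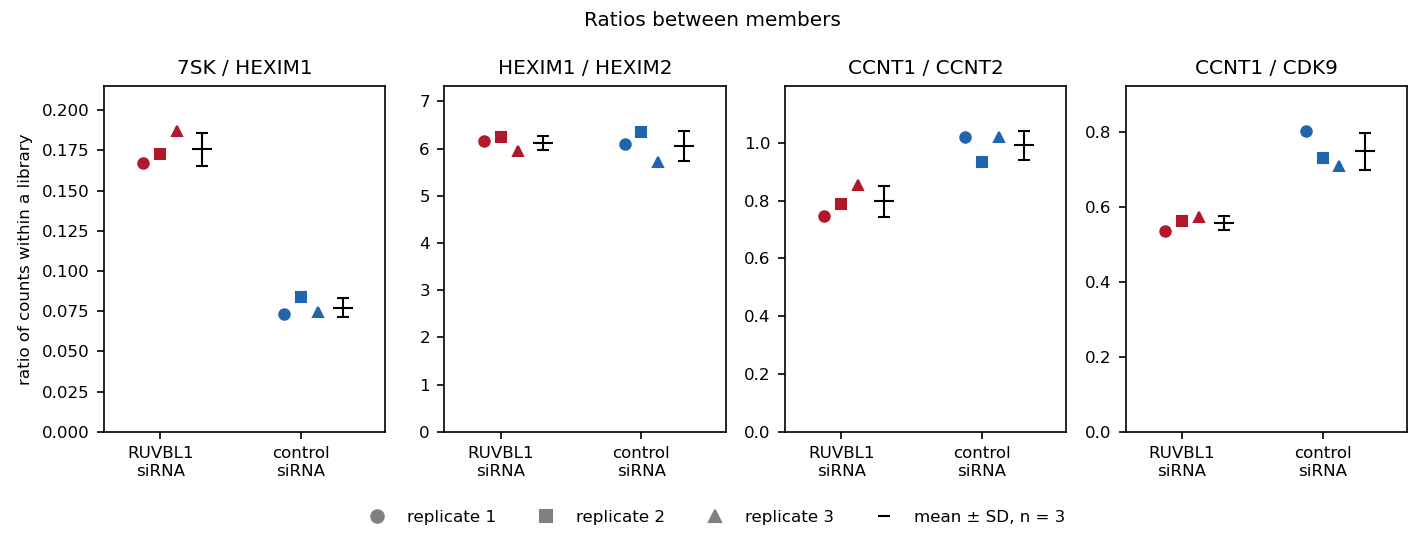
Ratio of counts within each library (vertical axes, from 0) for 7SK to HEXIM1, HEXIM1 to HEXIM2, CCNT1 to CCNT2 and CCNT1 to CDK9, in RUVBL1 siRNA and control siRNA libraries, with marker shape for the replicate number and bars for mean ± SD (n = 3). The groups separate for 7SK to HEXIM1 (0.176 and 0.0771 on average), CCNT1 to CCNT2 and CCNT1 to CDK9, and overlap for HEXIM1 to HEXIM2.

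Levels of the members were compared per kilobase of the median GENCODE 29 transcript length of each gene, as normalized counts per kb. In order of their control level, LARP7 had 3006 ± 45.3 after RUVBL1 siRNA and 2981 ± 20.6 after control siRNA, and CDK9 had 2550 ± 13.1 and 2356 ± 134 (SD, n = 3 each). MEPCE followed with 1848 ± 83.1 after RUVBL1 siRNA and 1860 ± 81.1 after control siRNA, and CCNT2 with 1633 ± 55.2 and 1624 ± 23.6. CCNT1 was next with 726.8 ± 29.3 after RUVBL1 siRNA and 899.4 ± 36.3 after control siRNA, then HEXIM1 with 821.4 ± 12.5 and 702 ± 20.6. 7SK and HEXIM2 came last in control libraries, and their ranges there overlapped. 7SK had 1569 ± 73.9 after RUVBL1 siRNA and 588.7 ± 54.2 after control siRNA, and HEXIM2 had 604.8 ± 5.85 and 523.5 ± 36.5. With these median lengths, the 7SK count per kb after RUVBL1 siRNA thus lay near that of CCNT2, above CCNT1 and both HEXIM genes. It is not known whether the libraries captured 7SK, which lacks a poly(A) tail, as well as mRNAs. The order is therefore one of counts, not of abundance in the cells.

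The order depended on the transcript length assumed, and the place of 7SK also on its unknown capture, so it is only a rough guide. With the longest transcript, control levels were 962.5 for LARP7, 898.2 for MEPCE, 702 for HEXIM1, 671.4 for CDK9, 588.7 for 7SK, 273.9 for HEXIM2, 180.0 for CCNT2 and 176.9 for CCNT1, all as normalized counts per kb. Here CDK9 overlapped with HEXIM1, LARP7 stayed highest and the T cyclins came last. Both orders put the 7SK count per kb below those of LARP7 and MEPCE in control libraries. After RUVBL1 siRNA, 7SK at 1569 was above every other member with the longest transcript, LARP7 at 970.6 and MEPCE at 892.8 coming next.

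Likeness of expression was measured as the root-mean-square distance between log2 CPM profiles, each centred on its own mean over the 6 libraries, for 11477 candidate genes with a symbol and 100 normalized counts or more on average. The genes nearest to 7SK were DDIT3 (distance 0.0849), CD55 (0.121), ALDH1A3 (0.129), DDIT4 (0.143) and ASNS (0.16). DDIT3 encodes the stress transcription factor CHOP, and it averaged 3216 normalized counts after RUVBL1 siRNA and 1239 after control siRNA. DDIT3 was the only candidate within 0.1 of 7SK. The distance used the same 6 libraries as the contrast, and the 7SK profile there is mostly its difference between the groups. The genes nearest to it are therefore largely those with a similar rise. The genes nearest to HEXIM1 were ANKRD13A (distance 0.00916), CHMP1B (0.0118), TBCEL (0.0139), CDC42SE2 (0.0141) and RASSF3 (0.0141). HEXIM1, with its small difference, had 2932 candidates within 0.1. Whether any of these genes share regulation with 7SK or HEXIM1 was not tested.

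Genes that act around 7SK and P-TEFb were followed in 12 lists of 160 genes. Of the 115 tested, 24 rose (20.9%) and 45 fell (39.1%), next to the 19.1% and 23.1% of all genes. The 24 include the 3 small nuclear RNAs that passed the low-count filter only through the RUVBL1 siRNA libraries. With library totals alone the split turned round, with 39 higher and 18 lower, so the counts by direction for a list depend on the scaling. Among the targets of P-TEFb, the pausing factors, none of 6 genes rose and 2 fell (median log2 fold change -0.03). SUPT5H, the large DSIF subunit, had 3895, 3765 and 3616 normalized counts after RUVBL1 siRNA, against 4926, 4912 and 4890 after control siRNA (log2 fold change -0.39, edgeR adjusted p = 2.3e-07). NELFA, at -0.11, passed with an adjusted p of 0.0335 and lost the call with library totals alone (adjusted p = 0.818), with DESeq2, and without RUVBL1 siRNA replicate 3 or control replicate 2 or 3. The same list had 2 higher and 1 lower with library totals alone.

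Among genes for proteins that recruit P-TEFb or free it from 7SK, 3 of 11 rose and 5 fell (median 0.00), against 6 and 3 with library totals alone. DDX21, a helicase that can release P-TEFb from 7SK, averaged 5170 ± 70.4 normalized counts after RUVBL1 siRNA and 6963 ± 44.9 after control siRNA (SD, n = 3 each), a log2 fold change of -0.43 with an adjusted p of 2.52e-09. TRIM28, which can tether the 7SK particle at promoters, fell by 0.27 on the log2 scale, with an adjusted p of 1.77e-07. In the super elongation complex, which carries active P-TEFb, 3 of 9 tested genes rose and 3 fell (median -0.08), against 3 and 1 with library totals alone and 2 and 1 without control replicate 1. The scaffold gene AFF4 rose by 0.17 and MLLT3 by 0.42, whereas its paralog MLLT1 fell by 0.40 on the log2 scale. Their adjusted p-values were 0.000337 for AFF4, 0.004 for MLLT3 and 3.55e-05 for MLLT1.

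The list of RNA-binding proteins that bind 7SK had 2 of 8 genes higher and 3 lower (median -0.04), against 3 and 1 with library totals alone. HNRNPA2B1 averaged 40050 ± 525 normalized counts after RUVBL1 siRNA and 32550 ± 504 after control siRNA (SD, n = 3 each), a log2 fold change of 0.30 with an adjusted p of 1.92e-07, and HNRNPA1 rose by 0.25 (adjusted p = 4.83e-07). DHX9, an RNA helicase, fell by 0.48 on the log2 scale, with an adjusted p of 7.22e-09. Of the La-related and MePCE-related paralogs, 1 of 6 rose and 1 fell (median 0.02), LARP6 at 0.32 (adjusted p = 0.00773) and LARP4 at -0.37 (adjusted p = 2.69e-07). With library totals alone 4 of these paralogs were higher and 1 was lower.

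Of 23 genes for factors of the 7SK promoter and subunits of RNA polymerase III, which transcribes 7SK, 4 rose and 13 fell (median -0.16). The count that fell depended on the setting: 4 rose and 5 fell with library totals alone, and 4 rose and 8 fell without RUVBL1 siRNA replicate 3. POLR3K, a small subunit of the polymerase, averaged 1146 ± 2.24 normalized counts after RUVBL1 siRNA and 1448 ± 26.8 after control siRNA (SD, n = 3 each), a log2 fold change of -0.34 with an adjusted p of 3.4e-06. POLR3GL, one of a pair of alternative subunits, rose by 0.60 (adjusted p = 2.48e-05), and POU2F1, the octamer-binding factor of the 7SK promoter, by 0.32 (adjusted p = 4.48e-05).

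The remaining lists hold other elongation and early termination factors and immediate early genes. Of the other transcription cyclins and CDKs, 4 of 9 rose and 1 fell (median 0.09), with CDK8 at 0.29, CCNK at 0.26 and CCNH at -0.23 (adjusted p = 3.77e-07, 1.86e-05 and 7.62e-05 in that order). With library totals alone 7 rose and 1 fell. In the list of the PAF1 complex and elongation chaperones, 1 of 10 rose and 5 fell (median -0.08; 2 and 2 with library totals alone), with SUPT16H at -0.40 (adjusted p = 2.15e-06), SUPT6H at -0.29 (4.75e-06) and TCEA1 at 0.21 (adjusted p = 6e-06). Integrator, which ends transcription of paused polymerases and small nuclear RNAs, had none of 15 genes higher and 8 lower (median -0.13), INTS1, INTS8 and INTS7 among them at -0.36, -0.34 and -0.28. With library totals alone 1 Integrator gene was higher and 3 were lower, and without control replicate 2 none was higher and 5 were lower. Of the immediate early genes, known to be controlled at pause release, 3 of 12 rose and 4 fell (median -0.03), and with library totals alone 4 rose and none fell. ATF3 rose by 0.61 (adjusted p = 2.55e-08) and JUND by 0.52 (adjusted p = 8.41e-05), while JUN was at -0.15 (adjusted p = 0.00275) and lost the call with library totals alone (adjusted p = 0.278).

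**Figure D5:**
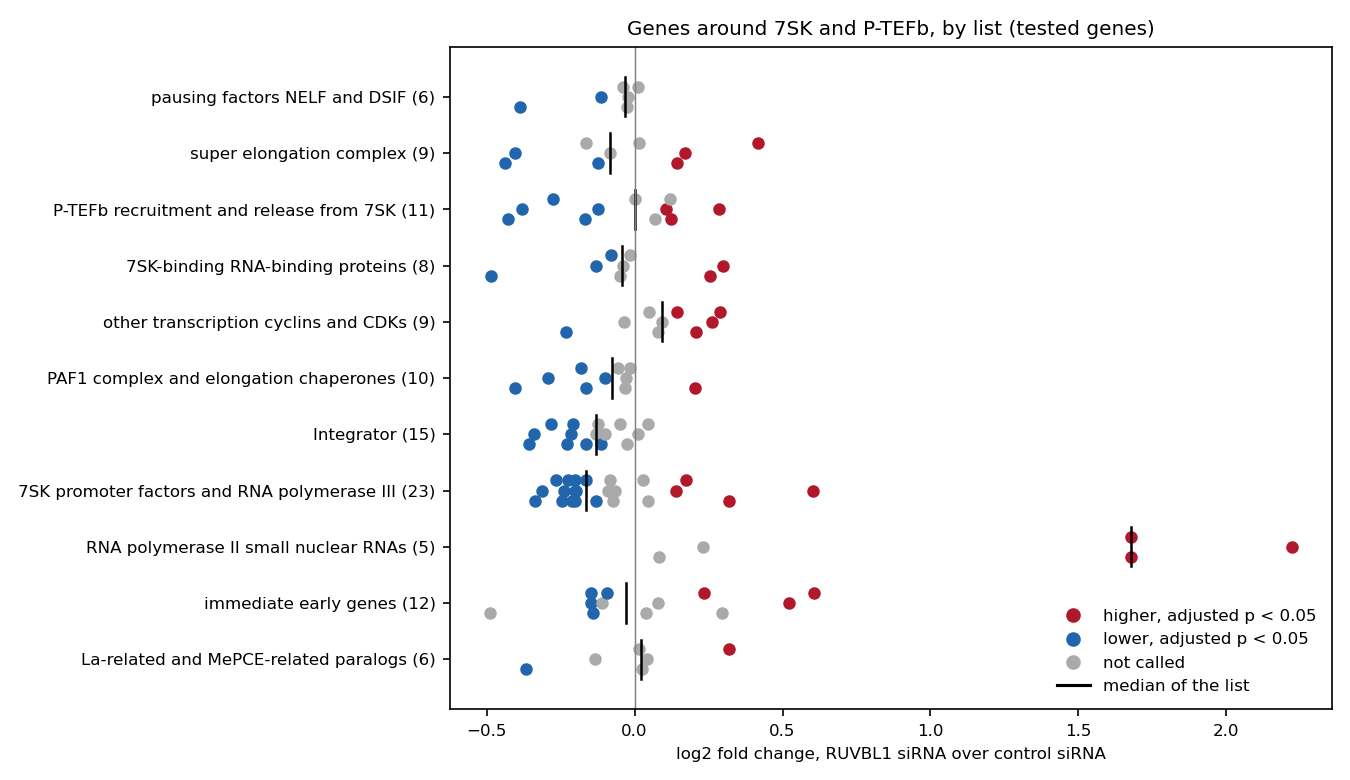
Log2 fold change of RUVBL1 siRNA over control siRNA (horizontal axis) for the tested genes of 11 lists around 7SK and P-TEFb, with the number tested in brackets, red for higher and blue for lower at an edgeR adjusted p under 0.05, grey for not called, and a black bar at the median of each list. The list medians lie between -0.16 and 0.09 except for the small nuclear RNAs at 1.68, and directions depend on the scaling, since library totals alone give 39 genes higher and 18 lower. The small nuclear RNAs called higher had at most 9.14 normalized counts in control libraries and passed the low-count filter only through the RUVBL1 siRNA libraries.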

How the data were processed

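The values are estimated counts per gene in 6 deposited files, not scaled to library size and with fractions; Bowtie 0.12.2 and mouse genome builds are named, per the submitters' processing notes, which conflicts with the human gene identifiers. The sources used here do not give the counter, human build, annotation, strand or read length. Counts were rounded, and the quasi-likelihood test of edgeR 4.0.16 was run in R 4.3.3 (filterByExpr, TMM, robust fit, group only, two-sided, Benjamini-Hochberg adjustment over 16006 genes, threshold 0.05). The pipeline was tested on simulated data. Normalized counts are counts divided by effective library size times its mean, 26348516; SE is the log2 fold change divided by the root of F. Gene types, lengths and 7SK sequence came from GENCODE 29, promoters from RefSeq. Symbols matched 51996 identifiers; 5824 had none. Members and lists were chosen with earlier results of these data known, and no set test was run.

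Genes named were the 8 members, RUVBL1, the 5 nearest profiles to 7SK and HEXIM1 (prior count 2), and the most abundant 3 copies of 7SK. From each list, up to 3 called genes with the smallest p and on average 20 or more normalized counts were named. RNU1-1, RNU1-2, RNU1-3, RNU1-4, SNORD3A, BCYRN1, RN7SKP71 and the overlapping genes were named after their values were seen. A few genes covered by the rule are not reported here. Alternatives were DESeq2 1.42.0, limma-voom (limma 3.58.1), other scalings and filters, each library left out, a replicate block and 7SK with its copies. No libraries were identical (chi-square per gene 1.74 to 3.88 within groups). Same-numbered libraries deviated together (r = 0.939, 0.819 and 0.823), and replicates 2 and 3 also correlated across numbers (0.807 and 0.817). Replicate numbers were treated as pairs only in the replicate block and in the fold differences by replicate number. This pairing came from these values and not from the labels. The main fit and the other alternatives were unpaired.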

Additional observations from a re-analysis of the deposited data

How the results depend on the processing

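The number of the 8 genes past the threshold was 5 and ranged from 3 to 5 when one library was left out, with 3 without RUVBL1 siRNA replicate 2 or 3 and without control replicate 1 or 2. It was also 3 in replicates 2 and 3 alone. HEXIM2 and CDK9 were the genes lost, and HEXIM1, CCNT1 and 7SK were not lost in any of these. With the replicate block, 7837 genes passed, against 6755 without it, and the paired fit changed no call among the 8 genes. Over all alternatives the genes called ranged from 5741 to 7837, the called genes of the lists from 57 to 73, and the log2 fold change of RUVBL1 from -0.83 to -0.71. Among the 8 genes and the listed genes named by the rule, no gene that passed changed sign under an alternative, while MEPCE, CCNT2 and LARP7, which did not pass, did in some. Other listed genes were recounted but not followed singly, and with library totals alone calls in the lists were mostly higher, not mostly lower. The small nuclear RNA list, with 3 called genes, had 5 without a low-count filter and 0 with DESeq2 or a minimum of 50 counts in 3 libraries. Precision for 7SK is limited by its 162.96 to 521.85 estimated counts per library and by shared reads with its copies.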
